A study of Mus musculus with 6 samples.

Results

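The transcripts described here are read by the 9658 array probes that lie inside intervals named as long intergenic non-coding RNA (lincRNA) and far from any protein-coding gene probe. A probe was taken when its name was a chromosome interval with a strand, when it lay on an autosome, and when its midpoint was more than 20 kb from the midpoint of every probe with an NM_ accession (a RefSeq coding mRNA) on the same chromosome. These members were 59.7% of the 16181 lincRNA probes and 17.3% of the 55681 probes on the array. They covered 2879 interval and strand names in 2233 intervals, and 646 intervals held members on both strands. Left out were 5828 lincRNA probes nearer to a coding probe, 577 on the sex chromosomes and 118 without a single position. The median distance to the nearest coding probe was 63.3 kb and the largest was 2097 kb. Coding probes mark a point within a gene, so a member can lie closer to the end of a gene than the distance given. All 9658 members lay inside the interval they are named for and on its strand.

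LincRNAs are transcribed from the space between coding genes, are often spliced and polyadenylated, and are usually less abundant and more cell-type specific than mRNAs. Some act on chromatin or on neighbouring genes, and for most no function is known. TIA1 and TIAR (encoded by Tial1) are closely related RNA-binding proteins that favour U-rich sequences and act in alternative splicing, in mRNA turnover and in translational silencing during stress.

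RNA was taken from immortalized murine embryonic fibroblasts (MEF), cells grown out of mouse embryos, and hybridised to 6 one-colour arrays. WT cells were of strain W4, TIA1 KO cells of strain BALB/c and TIAR KO cells of strain C57BL/6, with 2 arrays per group from independent samples. No treatment was given, and how each line was made and whether it is 1 clone are not given in the sources used here. Each genotype was thus represented by a single strain and a single line, so these cannot be told apart. All 6 arrays were on 1 slide, where the TIA1 KO pair occupied a separate row, so slide row and genotype cannot be told apart either for TIA1. Levels are the authors' normalised log2 intensities. A probe was called at an adjusted p under 0.05 (limma, Benjamini-Hochberg over all 55681 probes) and a fold change above 2. "Well above background" is the rating that the scanner software gave to a spot. Folds given as "at least" or as lower limits rest on this rating, as defined under the processing, and are not strict bounds. In RNA from whole cultures, fewer cells making a transcript and less of it per cell cannot be told apart.

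The brightest Tia1 probe read 10.57 and 8.71 in WT, 7.52 and 8.38 in TIA1 KO, and 9.75 and 9.77 in TIAR KO MEF. The groups WT and TIA1 KO did not overlap, but the difference of −1.69 ± 0.75 (SE) had an adjusted p of 0.247. The other two Tia1 probes gave −1.87 (adjusted p = 0.149) and, at a probe not well above background in WT, 1.10 (adjusted p = 0.106). The brightest Tial1 probe had its spot dropped on WT replicate 1 as an outlier and read 13.29 on WT replicate 2 and 9.80 and 11.78 in TIAR KO MEF (adjusted p = 0.188, not called). A second Tial1 probe read 11.84 and 11.19 in WT and 10.23 and 9.86 in TIAR KO MEF, a called fall of 1.47 on the log2 scale (adjusted p = 0.032). Whether these probes lie in the deleted parts was not tested. Of 8 fibroblast markers, 7 were well above background on both WT arrays, and Thy1 was near background in WT and TIA1 KO but at 14.83 and 14.79 in TIAR KO MEF. Col3a1, Fn1, Col1a1 and Pdgfrb were called higher in both knockouts. Of the blood markers, Ptprc was not well above background on any array, while Cd14 was on all 6 and was called lower in TIAR KO MEF (−1.27, adjusted p = 0.0126). Of the endothelial markers, Cdh5 was not on any array and Pecam1 was on the WT and TIAR KO arrays, with no call. Of the muscle markers, Myod1 was not on any array and Des, well above background on 1 of the 2 WT arrays, was called higher in TIAR KO MEF (1.15, adjusted p = 0.0126). The epithelial genes Cdh1, Krt8 and Krt18, but not Epcam, were also called higher there. Of the 2 Krt8 probes only the brighter was called, and the other gave 0.85. The part of these markers in the results below was not tested.

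The probe sequences below are those of the intervals described at most length, shown so that the overlap of probes and strands can be seen. Each is 60 bases as deposited, 5′ to 3′, with mm9 positions, and capitals mark runs of at least 4 T (the DNA letter for U), the kind of stretch that TIA proteins are known to favour. The first pair is from the region with the largest rises in both knockouts, on the reverse strand at chr15:32170404-32170463 and chr15:32170366-32170425:
chr15 interval, probe a: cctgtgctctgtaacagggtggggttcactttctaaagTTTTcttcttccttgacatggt
chr15 interval, probe b: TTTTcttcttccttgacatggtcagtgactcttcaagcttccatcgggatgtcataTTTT
The next pair are the largest rise in the region beside Myc (chr15:62082411-62082470, forward) and the largest fall in TIA1 KO MEF (chr5:23204280-23204339, reverse):
Myc region: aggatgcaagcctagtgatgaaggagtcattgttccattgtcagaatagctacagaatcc
chr5 interval near Pus7: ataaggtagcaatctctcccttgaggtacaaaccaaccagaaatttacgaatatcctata
The last pair lies in 1 interval near Acox3, where the strands moved in opposite directions. The forward probe (chr5:35977053-35977112) and the reverse probe (chr5:35977043-35977102) share 50 bases as complements:
Acox3 region, forward: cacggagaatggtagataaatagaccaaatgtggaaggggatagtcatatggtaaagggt
Acox3 region, reverse: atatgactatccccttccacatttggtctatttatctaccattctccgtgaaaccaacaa
Of these 6 sequences, only the chr15 pair hold such runs, and that pair overlaps on the genome.

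The TIA1 KO arrays stood apart from the other 4 in brightness and local background. Median spot intensity was 458 and 218 on them, against 152 and 140 for WT and 136 and 119 for TIAR KO MEF. The correlation between the arrays of a group was 0.957 for TIA1 KO, 0.990 for WT and 0.988 for TIAR KO MEF. Around the members' spots, the median local background was 89.75 and 58 for TIA1 KO, against 52 and 47 for WT and 46 and 42 for TIAR KO MEF. It was uneven on the TIA1 KO arrays: on replicate 1 it was 54 in the lower-numbered rows of spots and 185 in the higher-numbered rows, and on replicate 2 it was 45 and 77.

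Few members gave a clear signal. In WT MEF 21.1% and 27.3% of them were well above background, in TIAR KO MEF 23.1% and 25.7%, and in TIA1 KO MEF 9.71% and 13.4%. Both TIA1 KO arrays lay below the other 4. The group means were 24.2% ± 4.33 (SD, n = 2) in WT, 24.4% ± 1.89 in TIAR KO and 11.6% ± 2.6 in TIA1 KO MEF. The exact two-sided permutation test gave p = 0.33 for TIA1 KO against WT, the smallest that 2 against 2 arrays allow, and p = 1 for TIAR KO against WT. The TIA1 KO mean was 0.477 of the WT mean for the members and 0.463 for lincRNA probes nearer to coding probes. It was 0.8 for coding probes and 0.722 for all probes. In percentage points the difference was −12.7 for the members and −15.8 for the nearer lincRNA probes. For coding probes it was −12.2 and for all probes −12.4. The part of brightness and local background in this shortfall was not tested. Negative control spots had a median intensity of 196 and 119 on the TIA1 KO arrays, 112 and 103 for WT, and 96.7 and 88.6 for TIAR KO MEF. The dimmest log2 value rated well above background was 7.93 and 5.79 for TIA1 KO, 6.22 and 6.96 for WT, and 6.5 and 6.37 for TIAR KO MEF. In the lower-numbered rows of spots, with a TIA1 KO background of 54 and 45 beside a WT background of 54 and 48, 4.54% and 10.3% of members were well above background in TIA1 KO and 20.5% and 23.9% in WT MEF. In the higher-numbered rows, with 185 and 77 against 50 and 45, the shares were 14.9% and 16.5% against 21.8% and 30.6%.

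**Figure D1:**
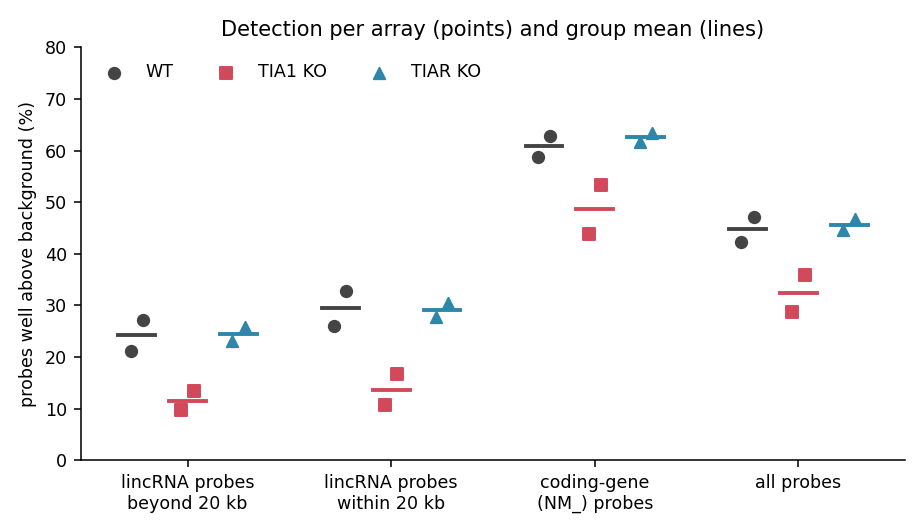
Percent of probes rated well above background on each array (points) with the group mean (line), for lincRNA probes beyond 20 kb of a coding probe, lincRNA probes within 20 kb, coding probes and all probes. Both TIA1 KO arrays lie below the WT and TIAR KO arrays in each of the 4 sets, and the members lie lowest in each group.

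Of the 9658 members, 461 (4.77%) were well above background on all 6 arrays, against 24.8% of all probes, and 5888 (61.0%) on none, against 42.9%. A further 677 were detected on both arrays of WT and of TIAR KO and on neither TIA1 KO array, or 7.01% against 6.38% of all probes, whereas 12 (0.124%, against 0.201%) were detected on all 4 knockout arrays and on neither WT array. On both arrays of 1 group and on no other array, 84 (0.87%) were detected in the WT group, 89 (0.922%) in the TIAR KO group and 41 (0.425%) in the TIA1 KO group, against 0.934%, 1.37% and 0.361% of all probes. In the 646 intervals with members on both strands, both strands were detected in 159 intervals in WT MEF, 164 with TIAR KO and 31 with TIA1 KO. Only 1 strand was detected in 262, 271 and 164 of them. Named for their high level were 5 members. The probe of chr11:22681800-22707775_R, 48.2 kb from B3gnt2, read 18.55 and 18.44 in WT, 18.45 and 18.46 in TIA1 KO, and 18.19 and 18.34 in TIAR KO MEF. The other 4, near Riok2, Foxp4, Tmcc1 and Akap11, read between 16.72 and 18.54 on every array, and none of the 5 was called. The probe near Akap11 is 83.3% G and C, against a median of 45% over the members. Whether such bright probes also bind transcripts of similar sequence elsewhere was not tested.

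In TIAR KO MEF, lincRNAs rose near Tas2r119 and beside Myc on chromosome 15 and at an interval of chromosome 9, those of an interval near Acox3 moved apart on their strands, and transcripts near Tbx5, Irx5 and Tmcc3 fell. In TIAR KO MEF 89 members were higher and 66 lower than in WT. They were 1.6% of the members, against 5.68% of all probes in the same fit, of which 3.32% were higher and 2.35% lower. The median change was −0.01 over the members and −0.02 over all probes. The rises lay in 53 interval and strand names and the falls in 45. In the group with the higher level, all 89 risen members and 65 of the 66 fallen ones were well above background on both arrays. The uncalled probes of the same interval and strand shared the sign in 90 of 136 cases for rises (66.2%, against 47.9% of all members with a positive change). For falls this was 89 of 106 (84%, against 52.1% with a negative one), and none was called the other way. Probes of 1 interval can overlap, so these cases are not independent readings, and the shares were not tested. The count rests on all 4 arrays: it was 40 and 51 without WT replicate 1 or 2, 29 without TIAR KO replicate 2, and 0 without TIAR KO replicate 1, where 844 members had an unadjusted p under 0.05. Under a common array median the split turned, with 73 higher and 102 lower, and it also turned without WT replicate 2.

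The largest rises were shared by both knockouts and came from the reverse strand of chr15, in the intervals chr15:32167516-32174427_R and chr15:32167516-32174417_R, 62.5 kb from the taste receptor gene Tas2r119. Probe a above read 6.57 and 6.62 in WT, 12.71 and 12.68 in TIA1 KO, and 12.60 and 12.59 in TIAR KO MEF. Both knockouts lay far above WT, where neither array rated the spot above background, and the knockouts were close to each other (difference −0.10 ± 0.15, adjusted p = 0.699). It was at least 61.0-fold higher in TIA1 KO (adjusted p = 0.00746) and at least 56.9-fold higher in TIAR KO MEF (adjusted p = 0.000135). Of the 10 members in these names, 8 were called up in both comparisons, and none of the 8 was well above background on a WT array. Their lower limits ran from 15.5- to 61.0-fold in TIA1 KO and from 15.4- to 56.9-fold in TIAR KO MEF. These 8 lie within chr15:32170329-32170578 and overlap, so they are not independent readings. A probe of the annotated non-coding gene 0610007N19Rik inside the interval was not well above background in WT either, and was at least 46.7- and 38.9-fold higher. Tas2r119 itself was not called. The local background at probe a was 125 and 71.5 on the TIA1 KO arrays. At probe b, where it was 54 and 53, the level in TIA1 KO MEF was at least 43.6-fold higher (adjusted p = 0.00746).

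The region beside Myc rose in TIAR KO MEF and was not called in TIA1 KO MEF. Myc encodes a transcription factor that promotes growth, and the Pvt1 non-coding gene lies here. Between 253 and 274 kb from the Myc probe lie 21 members in overlapping interval names, and 18 of them were called up in TIAR KO MEF, 14 of 16 on the forward and 4 of 5 on the reverse strand. They make up 20.2% of all 89 rises. The probe printed above (chr15:62046023-62082530_F) read 9.40 and 9.82 in WT, 9.09 and 10.17 in TIA1 KO, and 13.46 and 13.86 in TIAR KO MEF. WT and TIA1 KO values overlapped, and both TIAR KO arrays lay above them, by 4.05 ± 0.23 against WT (adjusted p = 0.000592). TIAR KO exceeded TIA1 KO by 4.03 ± 0.44 (adjusted p = 0.0427). The local background at this probe was 280 and 177 on the TIA1 KO arrays, where 1 of the 2 rated it well above background. Of the 18 called rises, 13 were at probes well above background on a WT array and ranged from 1.60 to 4.05. The other 5 had lower limits of 2.21- to 4.41-fold, whereas in TIA1 KO MEF the 21 members ranged from −0.95 to 0.95 with none called. In the direct comparison, 9 were higher in TIAR KO than in TIA1 KO MEF. A Pvt1 probe with the same 60 bases as a member gave 3.73 where the member gave 3.68. Myc itself changed by 0.73 ± 0.16 (adjusted p = 0.052), which was not called.

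**Figure D2:**
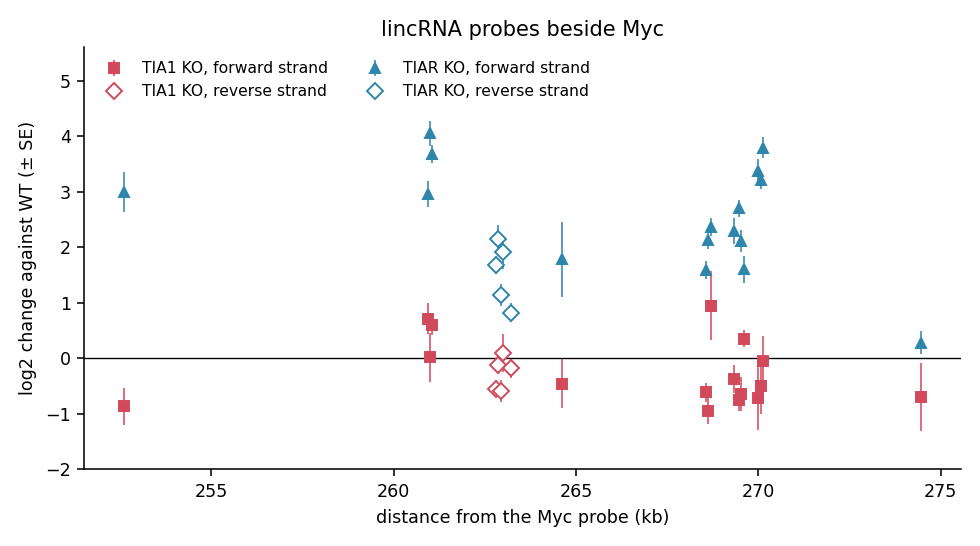
Log2 change against WT with its standard error for the 21 members beside Myc, by distance from the Myc probe in kb, for TIA1 KO (red) and TIAR KO (blue), with filled markers for the forward and open diamonds for the reverse strand. All TIAR KO changes lie above 0, and the TIA1 KO changes lie between −0.95 and 0.95.

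At chr5:35975265-35982561, 21 kb from Acox3, which encodes a peroxisomal oxidase, the strands moved in opposite directions, the only one of the 646 intervals with members on both strands in which this was called. The reverse strand was looked at after its values were seen. All 4 forward members were lower in TIAR KO MEF, by 3.40 to 3.96 on the log2 scale, and 3 of 4 reverse members were higher, by 1.98 to 2.90. The forward probe printed above read 10.92 and 11.57 in WT, 9.96 and 10.10 in TIA1 KO, and 7.37 and 7.76 in TIAR KO MEF. Its reverse partner read 10.19 and 10.34 in WT, 11.66 and 11.42 in TIA1 KO, and 13.30 and 13.02 in TIAR KO MEF. In both, TIA1 KO lay between the other groups with no overlap. The forward probe was well above background on 1 of the 2 TIA1 KO arrays and on 1 of the 2 TIAR KO arrays. At the forward member with the largest fall, the local background was 309 and 110 on the TIA1 KO arrays. The changes in TIAR KO were −3.68 ± 0.27 (adjusted p = 0.00132) and 2.90 ± 0.18 (adjusted p = 0.000766). In TIA1 KO MEF they were −1.22 (adjusted p = 0.122) and 1.27 (adjusted p = 0.0643), neither called. The forward probes overlap the reverse ones by 24 to 50 bases. Acox3 was not called.

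**Figure D3:**
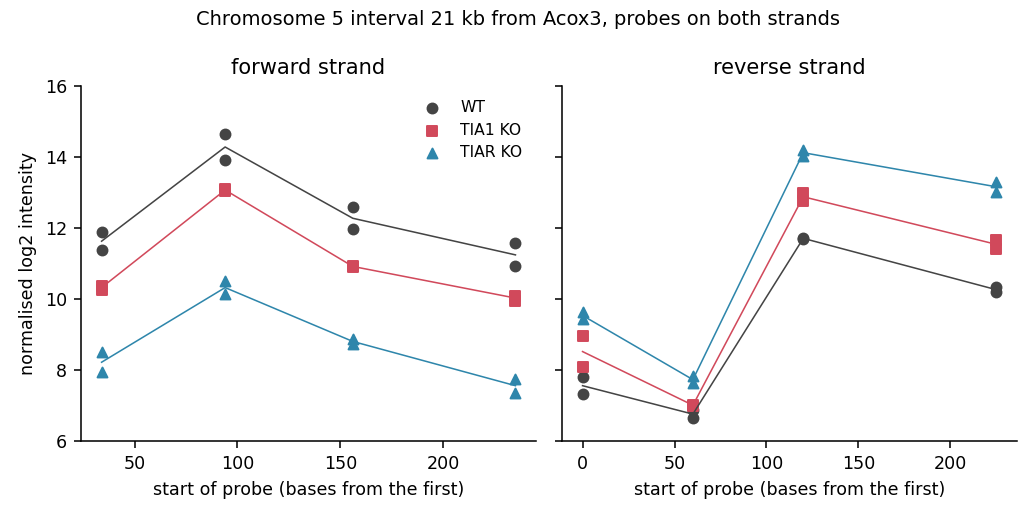
Normalised log2 intensity on each array (points) and group mean (lines) of the 4 forward and 4 reverse members near Acox3, by the start of the probe in bases from the first. TIAR KO lies lowest at each forward probe and highest at each reverse probe.

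At the other named rises in TIAR KO MEF, 1 or 2 probes of the interval were called. At chr9:68349343-68411643_F, 558 kb from Vps13c, the named probe read 6.76 and 6.73 in WT, 10.42 and 11 in TIA1 KO, and 10.97 and 11.15 in TIAR KO MEF. It was at least 14.4-fold higher in TIA1 KO (adjusted p = 0.0187) and at least 18.4-fold higher in TIAR KO MEF (adjusted p = 0.000186), and 2 of the interval's 8 members were called. The local background there was 273 and 84 on the TIA1 KO arrays. At chr9:118291593-118324230_F, 80.3 kb from Eomes, a T-box factor gene, 1 of 6 members rose, from 7.26 and 7.31 in WT to 10.27 and 10.82 in TIAR KO MEF. In TIA1 KO MEF it read 7.26 and 8.31. It was at least 9.58-fold higher in TIAR KO MEF (adjusted p = 0.00104). At chr10:94900849-94928059_R, 30.6 kb from Socs2, a feedback inhibitor of cytokine signalling, 1 of 10 members rose, by 2.88 in TIAR KO (adjusted p = 0.000553) and by 2.83 in TIA1 KO MEF (adjusted p = 0.0151), where the local background was 153 and 56. At chr3:58496493-58601253_F, near Clrn1, 1 of 3 rose by 2.58 (adjusted p = 0.00166) and 2.10 (adjusted p = 0.032). The probe of 4930593A02Rik, with the same bases, rose by 2.77 and 2.52. The local background at the member was 325 and 156 on the TIA1 KO arrays.

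The 6 intervals with the furthest falls in TIAR KO MEF lay near Acox3, Tbx5, Irx5, Klhdc8a, Olfr129 and Gm10375. The probe of chr5:120253747-120281800_R, 53.1 kb from Tbx5, a factor of heart and forelimb development, read 10.38 and 10.58 in WT and 6.64 and 6.99 in TIAR KO MEF. In TIA1 KO MEF its arrays were far apart, at 10.11 and 7.46. The groups WT and TIAR KO did not overlap, and the level was lower in TIAR KO MEF by at least 12.7-fold (adjusted p = 0.000479), with 1 of 3 members of that name called. The local background there was 650 and 80 on the TIA1 KO arrays. The Tbx5 probe, not well above background on any knockout array, fell at least 18.5-fold in TIAR KO (adjusted p = 0.000184) and at least 9.58-fold with TIA1 KO (adjusted p = 0.0179). At chr10:93975406-93977476_R, 73.6 kb from Tmcc3, which encodes a transmembrane protein, all 3 members were lower in TIAR KO MEF, and Tmcc3 fell by 2.07 (adjusted p = 0.0122). The named probe read 9.03 and 9.20 in WT, 6.78 and 7.01 in TIA1 KO, and 7.37 and 6.83 in TIAR KO MEF. It was at least 3.13-fold lower in TIA1 KO (adjusted p = 0.0268) and lower in TIAR KO MEF by at least 4.04-fold (adjusted p = 0.00587), so both knockouts lay below WT. At chr8:94841965-94881130_R, 34.7 kb from Irx5, a homeobox gene, 2 of 5 members fell, and the named one gave −2.19 (adjusted p = 0.00109), and Irx5 was not called.

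Members lower in both knockouts numbered 13 (0.135%, against 0.386% of all probes), in 11 interval and strand names. Those higher in both numbered 15 (0.155%, against 0.666%), in 8. The comparisons share the WT arrays, so nothing is read from these counts. At chr1:134171292-134176062_R, 32.3 kb from Klhdc8a, the named probe read 12.44 and 12.55 in WT, 8.68 and 9.50 in TIA1 KO, and 8.94 and 8.85 in TIAR KO MEF, with 1 of the 2 TIA1 KO arrays well above background. It fell by 3.40 ± 0.33 (adjusted p = 0.0371) and 3.60 ± 0.16 (adjusted p = 0.000296), while the other 2 probes of the interval were not called. At chr14:43929100-43945100_F the only member read 9.25 and 9.26 in WT, 7.09 and 7.21 in TIA1 KO, and 6.42 and 7.16 in TIAR KO MEF. It was at least 3.22-fold lower in TIA1 KO (adjusted p = 0.0216) and lower in TIAR KO MEF by at least 5.37-fold (adjusted p = 0.00508), and its local background was 198 and 136 on the TIA1 KO arrays. At chr17:38132217-38157667_F, 41.7 kb from the olfactory receptor gene Olfr129, 4 of 8 members were lower in TIAR KO MEF, the named one at least 5.74-fold (adjusted p = 0.000836), and at least 3.18-fold in TIA1 KO MEF (adjusted p = 0.032), at a local background of 261 and 60.

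**Figure D4:**
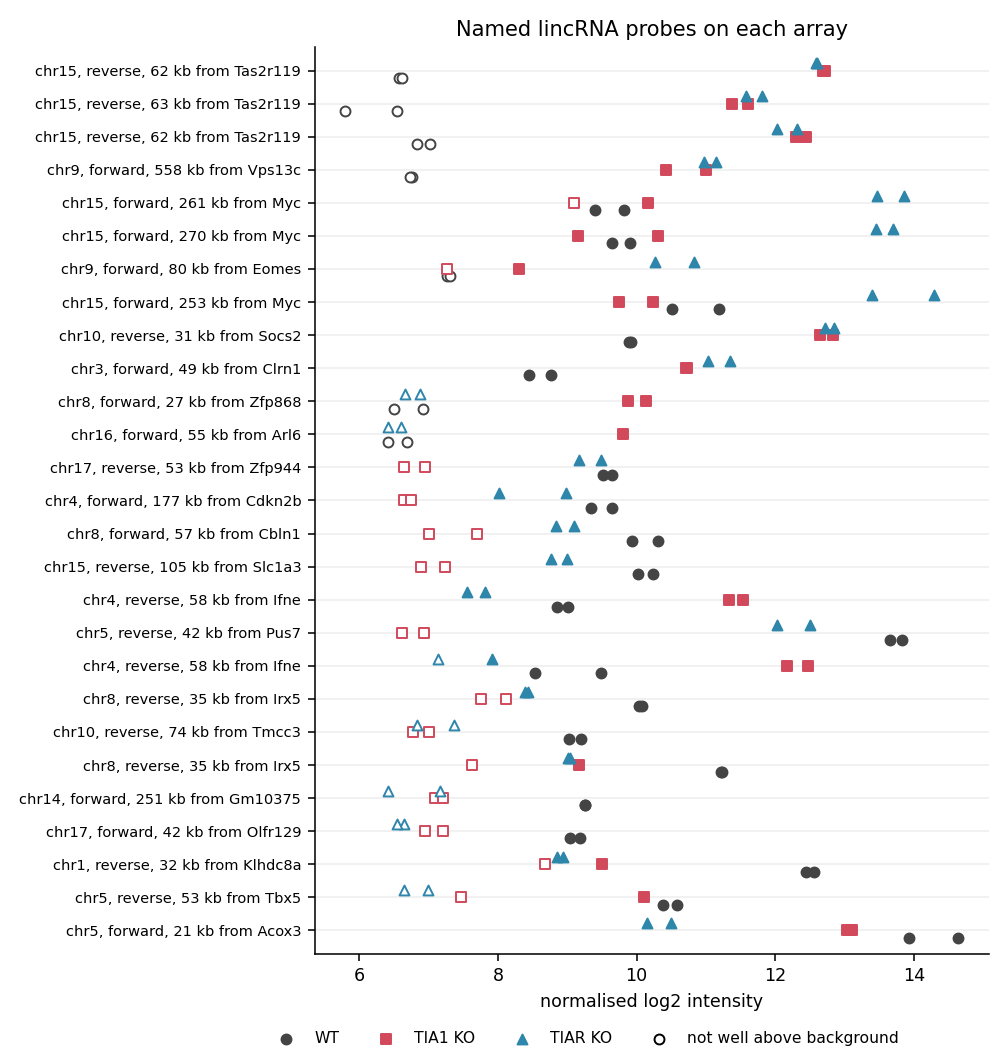
Normalised log2 intensity of the 27 named members called in at least 1 comparison on each array, sorted by the change in TIAR KO MEF. Rows give chromosome, strand, and distance to the nearest coding probe, and open markers are spots not well above background.

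In TIA1 KO MEF, several probes of 1 interval changed together near Tas2r119, Ifne and Pus7, whereas most rises were single probes at spots with a high local background. In all, 79 members were higher and 32 lower than in WT. They were 1.15% of the members, against 2.35% of all probes, of which 1.56% were higher and 0.787% lower. The median change was −0.10 over the members and −0.12 over all probes. In the brighter group, 48 of the 79 rises and all 32 falls were well above background on each array. Of the 79 rises, 73 lay in the higher-numbered rows of spots and 6 in the lower-numbered rows. The falls numbered 14 and 18 there, and the members 4835 and 4823. The median local background around the risen spots was 427 and 179 on the TIA1 KO arrays, against 89.75 and 58 for all members, and 50 and 45 on the WT arrays. Of the rises, 64 had no other called rise within 100 kb, and 95.3% and 84.4% of these had a local background over 2 times the array's median, against 25.7% and 10.8% of all members. The uncalled probes of the same intervals shared the sign of a rise in 92 of 207 cases (44.4%), against 42.8% of all members with a positive change. For the falls this was 50 of 58 (86.2%), against 57.2%. Here too the cases are not independent readings, and the shares were not tested.

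When members with a local background above 2 times the median on any array of the comparison were left out, a choice made after seeing the data, 68 of the 79 rises and 9 of the 32 falls were left out with them. All 34 remaining members kept their call, and in that fit 18 members were higher and 92 lower of 6707. The split of rises and falls also turned under a common array median, with 311 higher and 737 lower, where the median of all probes shifted to −0.67, and among probes well above background in a group, with 66 higher and 102 lower. The part of the local background in the 79 rises was not tested. The count was 0 without either WT array, where 800 and 906 members had an unadjusted p under 0.05, 41 when TIA1 KO replicate 1 was left out and 1729 when its replicate 2 was.

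**Figure D5:**
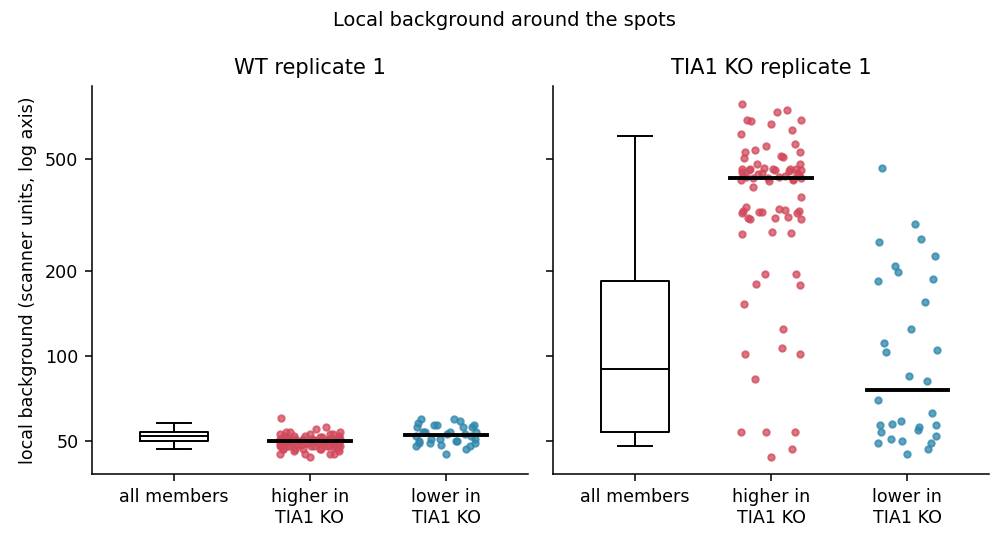
Local background around the spots of all members (box: median and quartiles, whiskers: 5th to 95th percentile) and of the members called higher (red) or lower (blue) in TIA1 KO, on 1 WT and 1 TIA1 KO array, on a log axis. On the TIA1 KO array the spots of the 79 rises have a median of 427 and on the WT array of 50.

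The 60 bases of 48 members are spotted a second time under another probe name, pairs that were looked at after seeing the data. In TIAR KO against WT, 3 of the members were called, and the second spot of all 3 was called the same way. In TIA1 KO against WT, 3 were called and only the probe near Clrn1 had its second spot called too. At chr16:21247571-21296945_R, named after its values were seen, the member read 7.02 and 6.79 in WT and 9.92 and 9.99 in TIA1 KO MEF (at least 7.81-fold higher, adjusted p = 0.0148), where its local background was 478 and 336. The other spot of this sequence read 6.88 and 6.90 in WT and 6.87 and 7.0 in TIA1 KO MEF (0.05, adjusted p = 0.848), with a background of 100 and 59. At chr17:84477999-84489215_F, also named after its values were seen, the member read 8.75 and 9.02 in WT and 6.92 and 7.23 in TIA1 KO MEF, a fall of 1.81 (adjusted p = 0.048) at a local background of 466 and 341. The other spot read 9.08 and 9.28 in WT and 10.43 and 8.13 in TIA1 KO MEF, so its mean difference of 0.10 (adjusted p = 0.942) rests on arrays that lay on either side of WT, with a background of 811.5 and 73.

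At chr4:88583425-88584070_R, 57.8 kb from Ifne, an interferon gene, the strongest probe read 9.48 and 8.54 in WT, 12.47 and 12.17 in TIA1 KO, and 7.92 and 7.14 in TIAR KO MEF. It rose by 3.31 ± 0.38 in TIA1 KO MEF (adjusted p = 0.0496) at a local background of 54 and 47, close to that of the WT arrays. In TIAR KO MEF it gave −1.48 (adjusted p = 0.0949). A second probe there read 9.01 and 8.85 in WT, 11.53 and 11.33 in TIA1 KO, and 7.81 and 7.55 in TIAR KO MEF, called in opposite directions (2.50, adjusted p = 0.0201, and −1.25, adjusted p = 0.0136). All 3 members were lower in TIAR KO than in TIA1 KO MEF, and Ifne was not called. The probe of chr8:71938275-72113375_F, 26.6 kb from Zfp868, was at least 8.34-fold higher in TIA1 KO MEF (adjusted p = 0.0209), while the other 4 members of the interval were not called and its local background was 461.5 and 259. At chr16:59557120-59602070_F, near Arl6, TIA1 KO replicate 2 was dropped as an outlier, and the remaining array read 9.80 against 6.42 and 6.69 in WT (adjusted p = 0.0503, not called). The local background at that spot was 514 on the remaining array and 130 on the dropped one.

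The largest fall in TIA1 KO MEF was at chr5:23195569-23218551_R, 42.3 kb from Pus7, which encodes a pseudouridine synthase. The probe printed above read 13.82 and 13.65 in WT, 6.61 and 6.93 in TIA1 KO, and 12.50 and 12.03 in TIAR KO MEF. In TIA1 KO MEF neither array rated it above background, and the groups did not overlap. Its level was lower in TIA1 KO MEF by at least 79.1-fold (adjusted p = 0.00746) and fell by 1.47 in TIAR KO MEF (adjusted p = 0.0146). The local background there was 50 and 60 on the TIA1 KO arrays. Of the 7 members of this name, 3 were called lower in TIA1 KO MEF, from −6.965 to −1.54 with a median of −1.81. At 1 of the 7 the change was 0.87, not called. A probe of the transcript BC023969 inside the interval was at least 154-fold lower (adjusted p = 0.00746). Pus7 was not called.

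Next in size was the fall near Klhdc8a given above, where the local background was 185 and 60 on the TIA1 KO arrays. The 4 falls that followed in size had a local background of 42 to 70 there. At chr15:8463685-8494960_R, 105 kb from Slc1a3, a glutamate transporter gene, the named probe read 10.24 and 10.02 in WT, 6.89 and 7.24 in TIA1 KO, and 9.0 and 8.76 in TIAR KO MEF. TIA1 KO lay lowest and TIAR KO between. It was lower in TIA1 KO MEF by at least 5.84-fold (adjusted p = 0.02) and fell by 1.25 in TIAR KO MEF (adjusted p = 0.0145), while Slc1a3 rose by 2.28 in TIA1 KO MEF (adjusted p = 0.0187). At chr4:89088538-89130181_F, 177 kb from Cdkn2b, a cell-cycle inhibitor gene, 2 of 3 members were lower, the named one at least 4.45-fold (adjusted p = 0.0192), and Cdkn2b gave −2.22 (adjusted p = 0.0658, not called). At chr17:22420025-22457650_R, near Zfp944, 2 of 5 were lower, the named one at least 4.42-fold (adjusted p = 0.02), and at chr8:89996710-90049453_F, near Cbln1, 1 of 3, at least 4.94-fold (adjusted p = 0.0496).

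Compared directly, 35 members were higher and 59 lower in TIAR KO than in TIA1 KO MEF, or 0.973% against 2.30% of all probes (1.10% higher, 1.20% lower). Of the 59, 56 lay in the higher-numbered rows of spots. Without members of high local background, 103 were higher and 10 lower of 6620. The split also turned under a common array median, with 386 higher and 162 lower, and among probes well above background in a group, with 106 and 60, whereas the scanner's processed signal gave 6 and 248. The count was 163 when TIA1 KO replicate 1 was left out, 1772 when its replicate 2 was, and 0 without either TIAR KO array, where 660 and 729 had an unadjusted p under 0.05. Among the named members, the probe near Pus7 was at least 28.5-fold higher in TIAR KO (adjusted p = 0.0122). The strongest probe near Ifne, well above background on 1 of the 2 TIAR KO arrays, differed by −4.79 (adjusted p = 0.0195).

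Neighbouring coding genes were seldom called with the members. Of the 89 rises in TIAR KO MEF, 7.87% had a nearest coding probe that was also called up, against 8.40% of all members, and of the 66 falls 12.1% had one called down, against 4.90%. The 4 genes were Glis2, Rnf130, Tbx5 and Tmcc3. Of the 79 rises in TIA1 KO MEF 7.59% had one, against 4.02%, Col6a2, Sema5a and Thbs1 among them, and of the 32 falls none had, against 0.818%. Members of 1 interval share a neighbour, so these shares were not tested.

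Annotated lncRNAs served as a comparison. Of 20 listed genes 14 were on the array, 11 of them well above background on both WT arrays. By limma none was called in TIA1 KO against WT, where 4 had an unadjusted p under 0.05 at their brightest probe. Against WT, 3 were called in TIAR KO MEF. Gas5, a host of small nucleolar RNAs, was called higher at its brightest probe (1.77, adjusted p = 0.00591), while its other two probes gave 0.54 and 0.33 and were not called. Meg3 was also called at 1 of its 3 probes, which was not well above background in WT and was at least 2.77-fold higher (adjusted p = 0.00342), while the others gave −0.56 and 0.46. Neat1, the scaffold of paraspeckles, has 1 probe, which fell by 1.45 (adjusted p = 0.0207).

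The members nearest above the distance limit, 20.002, 20.024 and 20.026 kb from Enc1, Rnf130 and Mcfd2, read 8.18, 6.8 and 7.6 on WT replicate 1. The lincRNA probes nearest below it, 19.997, 19.993 and 19.988 kb from Phf14, Fis1 and Cyb5d1, read 7.18, 7.89 and 6.63, and none of the 6 was called.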

How the data were processed

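RNA of 6 MEF cultures was labelled with 1 dye and hybridised to Agilent mouse arrays. The authors deposited scanner files with the intensity of each spot and its local background, and a table of log2 values. For the latter they corrected the local background (normexp, offset 50), fitted loess on each array and equalised quantiles between arrays. The submitters' processing notes name limma, and its version is not given in the sources used here. Loess and quantile steps force similar distributions, so a shift shared by most probes is removed. Each log2 column correlated best with its own array (0.975 to 0.999). Probe positions are on mm9, as the scanner files state. Here, spots marked as outliers were dropped, spots of a probe averaged, and each pair of groups fitted on its 4 arrays with limma 3.58.1 (lmFit, eBayes) in R 4.3.3, with Benjamini-Hochberg adjustment. Python 3.11.15 with pandas 2.3.3 served for counts. Where the lower group was not above background, the fold is given as "at least" or as a lower limit. For it, the lower group took, per array, the dimmest value still rated above background (5.79 to 7.93). Where the probe's own value was higher, that was taken, and with both arrays so the figure equals the plain fold. Spots not rated above background can read higher than that dimmest value, so these figures are not strict bounds.

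Named by rule were the 6 largest rises and falls of each knockout against WT, the 3 largest in each direction between knockouts, up to 5 called alike in both, those called in opposite directions, the 5 with the highest mean, and the 3 on each side of the distance limit, with their nearest coding probes. Only 1 probe of an interval and strand was taken per part of the rule. Members next to 1 gene that the rule also named are not reported here. Members and lists were chosen with earlier results of these data known. The fits were tested on simulated data. Alternatives were a rebuild from the scanner files (normexp offset 50, loess, quantile), other scalings, filters and fits, 10 and 50 kb limits, the brightest probe of an interval, and leaving out each array. The number of arrays limits the precision.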

Additional observations from a re-analysis of the deposited data

Results flagged for a closer look

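A member near Ifne, at chr4:88583641-88583700, was called up in TIA1 KO and down in TIAR KO MEF, and the direct comparison of the knockouts separated them too. The log2 difference of TIAR KO from TIA1 KO was −3.75 ± 0.19 (limma, adjusted p = 0.0131), and the arrays of the knockouts did not overlap. The spot had a local background over 2 times the array's median on TIA1 KO replicate 1 (180), and the part of this was not tested. At the other named probe of the interval, with a local background of 54 and 47 on the TIA1 KO arrays, the difference was −4.79 (adjusted p = 0.0195).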

How the results depend on the processing

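The count for TIA1 KO against WT stayed within 1.5 times of 111 in values rebuilt from the scanner files (143), with an offset of 16 (140), without loess (125) and beyond 10 kb (130). It was 1048 with a common array median, 168 among probes well above background in a group, 341 with the 3 groups fitted together, 60 with an intensity trend, 18 when the change was tested against a log2 fold of 1 (treat), 73 beyond 50 kb and 62 with the brightest probe of each interval. With the scanner's processed signal it was 0 by limma, where 5903 members had an unadjusted p under 0.05 and the median of all probes was 1.98. Leaving out 1 array gave 0 to 1729. For TIAR KO against WT, 155 became 88 with the groups fitted together, 40 by treat, 92 beyond 50 kb and 71 with the brightest probe, and 0 to 51 without 1 array. The other settings gave 108 to 190. For TIAR KO against TIA1 KO, 94 became 548 with a common median (median of all probes 0.63), 254 with the processed signal (median −1.85), 166 among probes above background, 314 fitted together, 59 with the trend, 17 by treat and 45 with the brightest probe, and 0 to 1772 without 1 array. Fewer probes or arrays were tested in the 50 kb, brightest-probe and leave-one-out settings. Each leave-one-out fit left 1 array in a group, so its spread came from the 2 arrays of the other group alone. The cause of the other shifts was not tested.

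Replicate numbers did not pair the samples (correlations of deviations 0.0746, 0.0328 and −0.0566). With the replicate block, the counts were 0 for TIA1 KO (1494 members at an unadjusted p under 0.05), 108 for TIAR KO and 0 between the knockouts (1215 unadjusted). The difference in the share well above background between TIA1 KO and WT was −15.7 to −9.59 percentage points without 1 array, and that between TIAR KO and WT was −2.87 to 3.25, below 0 without WT replicate 1 (−2.87) or TIAR KO replicate 2 (−1.14). Gapdh, not called in any comparison with WT, changed sign in TIA1 KO when 1 array was left out (−0.14 to 0.04), and in TIAR KO with a common median (−0.15) and the processed signal (−0.10). Of 41 changes of the 27 named members none changed sign. The call was lost in 24 with the block, 22 with the processed signal, 20 by treat, 4 with the trend, 2 fitted together and 1 with a common median. Of those tested, it was lost in 22 of 22 without TIAR KO replicate 1, 16 of 22 without its replicate 2, 23 of 36 without either WT array, 13 of 23 without TIA1 KO replicate 1 and 0 of 24 without its replicate 2.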

Other observations

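Runs of at least 4 T, the letters TTTT searched on the printed strand only, stood in 27.6% of the 9658 member probes and in 30.2% of all probes. The share was 30.4% in the 79 rises and 28.1% in the 32 falls of TIA1 KO MEF, and 29.2% in the 89 rises and 19.7% in the 66 falls of TIAR KO MEF. A probe of 60 bases holds only a small piece of a transcript, so a missing run says nothing of the rest of the RNA.

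Chromosome 15 held 443 members, of which 8.13% were called in TIAR KO MEF (against 1.6% of all members and 5.68% of all probes). In TIA1 KO MEF 2.71% were called (against 1.15% and 2.35%). Of its 32 rises in TIAR KO MEF, 18 lay beside Myc and 8 near Tas2r119. Near Tas2r119 also lay 8 of its 10 rises in TIA1 KO MEF. Most of these calls are thus repeated probes of 2 regions, and nothing is read from the share for the chromosome. On chromosome 9, 4.28% of 421 members were called in TIAR KO MEF, above the share of all members and below that of all probes, 7 up and 11 down, and 5 falls in 2 interval names lay near Zbtb38, 3 of them by −1.10 to −2.10 and 2, not well above background in TIAR KO MEF, by lower limits of 2.89- and 3.25-fold. By distance, the share called in TIAR KO MEF was 1.65% at 20 to 50 kb, 1.73% at 50 to 100 kb, 0.827% at 100 to 200 kb and 2.35% beyond 200 kb, where the region beside Myc lies, each below the 5.68% of all probes. In 1 forward-strand interval of chromosome 1 near Cops8, 5 members rose in TIAR KO MEF. Of these, 4 were not well above background in WT, with lower limits of 2.06- to 6.13-fold, and the other gave 1.38.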
